A study of Mus musculus with 16 samples.

Results

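The inflammasome and IL-1 family genes examined here were Nlrp6, Pycard, Casp1, Casp4, Gsdmd, Il18, Il1b and Il1rn. They were chosen by symbol, and all 8 had a row among the 21442 gene rows of the count table. RNA was sequenced from distal colon epithelium of mice aged 6 to 8 weeks that all carried the RedMUC298trTg mCherry reporter. Cells released with EDTA and collagenase were sorted by mCherry, with gates set on a C57Bl6 mouse without the reporter. Some of the mice were labelled Spdef -/-, a null genotype for a transcription factor of goblet cell maturation, and genotypes throughout are those of the labels. This gave 4 groups of 4 libraries: mCherry-positive goblet cells of Spdef -/- RedMUC298trTg mice (SpdefKO_GC), the same fraction of RedMUC298trTg mice (WT_GC), mCherry-negative remaining epithelial cells of Spdef -/- RedMUC298trTg mice (SpdefKO_EC), and that fraction of RedMUC298trTg mice (WT_EC). Libraries are named by group and the sample number in their label. Whether each library is from a different mouse is not stated in the labels, so the tests rest on the spread between libraries, which may be technical. Goblet cell RNA was purified on MinElute columns and that of the other cells on Mini columns, so cell fraction and purification cannot be told apart.

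An inflammasome is a cytosolic protein complex. A sensor such as NLRP6 recruits the adaptor ASC, the product of Pycard, which in turn binds and activates caspase-1. Caspase-1 cleaves the precursors of IL-1β and IL-18 and opens gasdermin D, whose released fragment forms pores in the plasma membrane. The product of mouse Casp4 detects bacterial lipopolysaccharide in the cytosol and cleaves gasdermin D directly. IL1RN is a soluble antagonist that occupies the IL-1 receptor without signalling. In mouse colon, Nlrp6 is known for its link to mucus release by goblet cells, and IL-18 is produced by the epithelium itself.

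Libraries held 10085637 to 17111987 counts in gene rows, and levels below are these counts scaled to equal library totals, as CPM. Spdef itself had 300.4 to 470 CPM in SpdefKO_GC and 285 to 323 CPM in WT_GC. The log2 difference was 0.33 ± 0.14 (SE; adjusted p = 0.116, edgeR quasi-likelihood test). It passed as higher in SpdefKO_GC with limma-voom (adjusted p = 0.0479), with the goblet cell groups fitted alone (adjusted p = 0.0439) and without SpdefKO_GC 19 (0.43, adjusted p = 0.0459). The sources used here do not say which part of Spdef the allele removes, so a count over the whole gene does not check the genotype labels. Muc2, the gel-forming mucin of goblet cells, averaged 13009 and 12483 CPM in SpdefKO_GC and WT_GC, against 26.7 and 47.4 CPM in SpdefKO_EC and WT_EC. Car4, an absorptive colonocyte gene, averaged 44.1 and 33.4 CPM in the goblet cell groups and 1069 and 1655 CPM in the EC groups of the same genotypes. The 11 absorptive colonocyte markers summed to 1643 to 1985 CPM in SpdefKO_GC and 1142 to 1320 CPM in WT_GC, against 11063 to 12489 CPM in SpdefKO_EC and 12048 to 13525 CPM in WT_EC. Pairs of libraries within a group differed by 4.33 to 32.5 times the variance of counting alone. The largest values were those of SpdefKO_EC 6 with SpdefKO_EC 4 and 8, at 27.7 and 32.5 times. SpdefKO_GC 5 differed from SpdefKO_GC 3, 7 and 19 by 24.3, 22.8 and 13.9 times. WT_GC 13 differed from the other WT_GC libraries by 14.6 to 15.4 times that variance, whereas the other 3 differed among themselves by 4.33 to 7.56 times. Results in WT_GC are therefore given also without library 13 where its removal matters.

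Within the goblet cell fraction, Casp4 and Il1b were higher and Il1rn was lower in SpdefKO_GC than in WT_GC. Nlrp6, Pycard, Casp1, Gsdmd and Il18 did not pass the test. Changes are log2 fold changes from one edgeR quasi-likelihood fit over all 12915 genes tested, with Benjamini-Hochberg adjustment and a threshold of 0.05. Of all genes tested, 21.4% passed in this comparison, so a count of 3 in 8 does not set these genes apart. The median log2 change of the 8 genes was 0.01, against 0.00 for all genes tested.

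**Figure D1:**
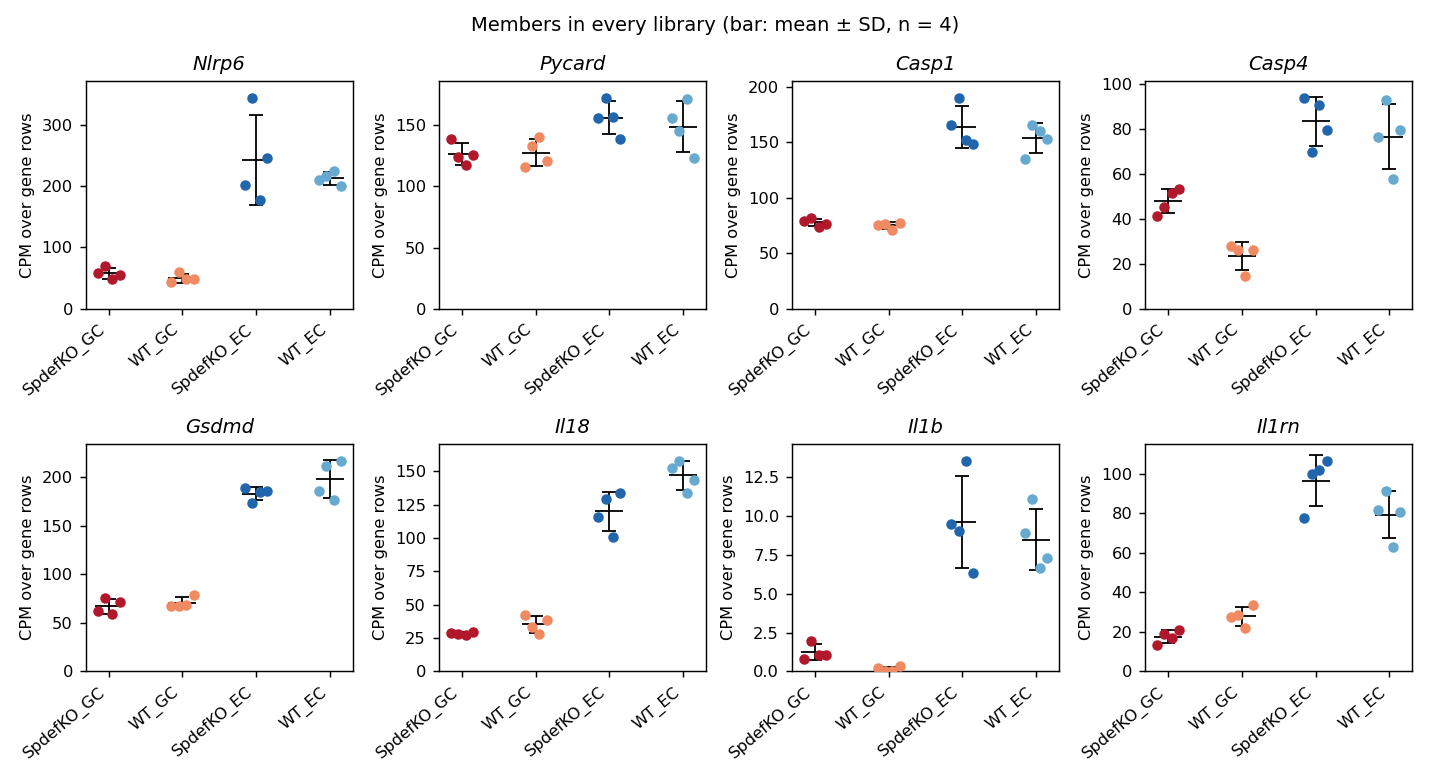
CPM of each of the 8 genes (vertical axes, linear from 0) in every library of the 4 groups; points are libraries and bars the mean ± SD (n = 4; lower bars stop at 0). Casp4 lies at 41.4 to 53.2 CPM in SpdefKO_GC and 14.5 to 27.8 CPM in WT_GC, and for 7 of the 8 genes, all but Pycard, both goblet cell groups lie below both EC groups.

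Casp4 showed the clearest separation by genotype among the enzymes. It had 41.4, 45.5, 51.6 and 53.2 CPM in SpdefKO_GC libraries 3, 5, 7 and 19, against 27.8, 26.0, 14.5 and 26.1 CPM in WT_GC libraries 9, 11, 13 and 18. All 4 SpdefKO_GC libraries lay above all 4 WT_GC libraries, and library 13 was the lowest. The log2 change was 1.02 ± 0.19, a 2.02-fold higher level (adjusted p = 0.00126, edgeR). Without WT_GC 13 it was 0.84 (adjusted p = 0.00131). Casp4 lies at chr9:5308828-5336783 on the plus strand (mm10, GENCODE vM21) and downstream of Casp1 at chr9:5298517-5307265.

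Because Casp4, Il1b and Il1rn were the genes that changed with genotype in goblet cells, a promoter window of each is shown. Each runs from 250 bases before to 50 bases after a RefSeq transcription start (GRCm38.p6), 5′ to 3′ along the gene. Capitals mark matches to an NF-κB-like motif, GGGNNNTTCC on either strand. The windows are chr9:5308599-5308898 on the plus strand, chr2:129371090-129371389 on the minus strand and chr2:24336610-24336909 on the plus strand.
Casp4: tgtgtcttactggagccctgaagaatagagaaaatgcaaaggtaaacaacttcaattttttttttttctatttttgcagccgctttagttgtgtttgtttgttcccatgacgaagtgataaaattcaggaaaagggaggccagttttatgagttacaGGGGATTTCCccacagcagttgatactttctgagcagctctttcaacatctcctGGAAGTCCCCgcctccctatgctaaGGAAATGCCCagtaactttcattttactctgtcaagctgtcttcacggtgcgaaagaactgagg
Il1b: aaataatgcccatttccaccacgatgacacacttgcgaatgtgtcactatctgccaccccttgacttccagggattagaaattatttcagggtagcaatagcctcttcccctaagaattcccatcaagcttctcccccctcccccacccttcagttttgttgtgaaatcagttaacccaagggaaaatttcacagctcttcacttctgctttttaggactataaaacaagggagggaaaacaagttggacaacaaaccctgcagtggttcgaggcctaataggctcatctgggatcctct
Il1rn: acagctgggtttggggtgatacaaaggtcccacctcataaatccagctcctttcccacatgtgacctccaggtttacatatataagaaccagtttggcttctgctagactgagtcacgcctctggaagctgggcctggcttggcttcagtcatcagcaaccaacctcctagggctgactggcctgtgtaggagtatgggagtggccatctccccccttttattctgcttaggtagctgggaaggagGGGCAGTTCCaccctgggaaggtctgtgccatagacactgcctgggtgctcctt
The Casp4 window held 3 NF-κB-like matches, GGGGATTTCC, GGAAGTCCCC and GGAAATGCCC, starting 93, 39 and 14 bases before the start site. Of 32851 promoter windows of this length, 5.56% held at least 1 such match, and 7 windows (0.0213%) held 3 or more. Among these 7 are the Casp4 window shown and another Casp4 window that overlaps it, chr9:5308610-5308909, with the same 3 matches. The Il1rn window shown held 1, GGGCAGTTCC, starting 4 bases before the start site. The other Il1rn windows, chr2:24345041-24345340 and chr2:24345121-24345420, overlap each other and held a different match, GGGTTTTTCC. The letters were not found in this Il1b window, nor in those of Nlrp6, Pycard, Casp1 and Il18; 7 of the 8 genes had a window. An ISRE-like motif (GAAANNGAAA), a GAS-like motif (TTCNNNGAA) and an ETS-type motif of the kind bound by SPDEF (CCGGAT) were searched on both strands as well and matched none of these windows; they occurred in 3.44%, 8.30% and 6.04% of all windows. No overlap between motifs arose in the windows shown, and a match is a description of letters, not of binding.

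Il1b, the main secreted IL-1 agonist, was close to the counting limit in goblet cells. SpdefKO_GC libraries 3, 5, 7 and 19 held 13, 28, 14 and 15 counts, or 0.79, 1.98, 1.04 and 1.09 CPM. WT_GC libraries 9, 11, 13 and 18 held 3, 1, 0 and 4 counts, or 0.204, 0.0584, 0 and 0.365 CPM. No value was shared between the groups. The fitted log2 change was 3.05 ± 0.61 (adjusted p = 0.00186, edgeR). Summed over libraries, 70 counts in SpdefKO_GC and 8 in WT_GC gave a ratio of 8.77, with an exact 95% interval of 4.21 to 21.1 that covers counting error only. Removing single libraries moved the log2 change from 2.63, without WT_GC 13, to 3.71, without WT_GC 18, and the call remained. An antisense gene, Il1bos, overlaps Il1b at chr2:129364570-129371139, and the sources used here do not give the strand setting of the counting.

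Il1rn moved the other way. It had 13.3, 19.1, 17.1 and 21.1 CPM in SpdefKO_GC libraries 3, 5, 7 and 19, against 27.5, 28.5, 21.99 and 33.8 CPM in WT_GC libraries 9, 11, 13 and 18. The groups did not overlap, although the highest SpdefKO_GC library lay within 1 CPM of the lowest WT_GC library. The log2 change was -0.67 ± 0.17, or 1.59-fold lower (adjusted p = 0.00892, edgeR). Casp4, Il1b and Il1rn were also the 3 genes of 8 whose libraries did not overlap between SpdefKO_GC and WT_GC; 25.1% of all genes tested were separated in this way.

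The sensor, the adaptor, the other enzyme and the pore-forming protein were close between genotypes in goblet cells. Nlrp6 averaged 57.6 ± 8.94 CPM in SpdefKO_GC and 49.8 ± 7.08 CPM in WT_GC (SD, n = 4 each), with a log2 change of 0.21 and a 95% interval of -0.15 to 0.56. For Pycard the interval ran from -0.21 to 0.17, around means of 126 ± 8.87 CPM in SpdefKO_GC and 127 ± 11.2 CPM in WT_GC. Casp1 had the narrowest interval, -0.13 to 0.22, with 74.1 to 81.7 CPM in SpdefKO_GC and 70.6 to 77.5 CPM in WT_GC. Gsdmd ranged from 58.8 to 75.5 CPM in SpdefKO_GC and from 67.3 to 79.1 CPM in WT_GC, with an interval of -0.28 to 0.12. These intervals leave out a 2-fold genotype difference in either direction for all 4 genes.

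Il18 stood near the threshold. It had 28.8, 28.0, 27.3 and 29.8 CPM in SpdefKO_GC libraries 3, 5, 7 and 19, and 42.6, 33.2, 27.9 and 38.6 CPM in WT_GC libraries 9, 11, 13 and 18. Only WT_GC 13 fell within the SpdefKO_GC range. The log2 change was -0.33 ± 0.12 (adjusted p = 0.0574, edgeR). It passed without WT_GC 13 (-0.43, adjusted p = 0.0118), without SpdefKO_EC 8 (adjusted p = 0.0453) and with upper-quartile scaling (adjusted p = 0.0432). Il18, at chr9:50554827-50581840, overlaps Bco2 and Tex12 on the opposite strand; Bco2 averaged 15.3 CPM in SpdefKO_GC and 17.6 CPM in WT_GC.

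Markers of other cells also differed between the goblet cell groups. In SpdefKO_GC against WT_GC, 7 of 11 absorptive colonocyte markers and 10 of 10 enteroendocrine markers were higher, where 1342 of all 12915 genes tested were. The enteroendocrine sum was 228 to 333 CPM in SpdefKO_GC against 91.1 to 132 CPM in WT_GC. The sum of 16 macrophage, monocyte and neutrophil markers was 49.4 to 59.9 CPM in SpdefKO_GC and 42.2 to 45.5 CPM in WT_GC. Cd14 made up most of it, at 41.0 ± 5.86 CPM in SpdefKO_GC and 35.9 ± 2.26 CPM in WT_GC, whereas S100a8 and S100a9 were at 0 in both groups. Csf1r, the macrophage colony-stimulating factor receptor, averaged 0.478 CPM in SpdefKO_GC and 0.139 CPM in WT_GC. The sum of 14 lymphocyte markers was 0.790 to 1.20 CPM in SpdefKO_GC and 0.0662 to 0.547 CPM in WT_GC, and stromal markers summed to 8.19 to 10.6 CPM in SpdefKO_GC and 2.91 to 3.45 CPM in WT_GC. The sums of these lists were higher in SpdefKO_GC, as were Il1b and Casp4. Gene by gene, 2 of 7 macrophage, monocyte and neutrophil markers tested, 0 of 1 lymphocyte marker and 1 of 3 stromal markers passed as higher. Of the tuft cell markers 0 of 7 tested passed, and their sums overlapped, at 20.8 to 48.0 CPM in SpdefKO_GC and 38.6 to 54.0 CPM in WT_GC. The part of any of these lists in the result was not tested. In bulk libraries, more cells of a type and more RNA per cell cannot be told apart.

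In the remaining epithelial cells none of the 8 genes passed the test between SpdefKO_EC and WT_EC, where 12.6% of all genes tested did. At an unadjusted p under 0.05, 1 of the 8 passed, Il18. DESeq2 and limma-voom also called 0 of the 8. Il18 had 116, 130, 101 and 134 CPM in SpdefKO_EC libraries 4, 6, 8 and 20, against 152, 158, 134 and 143 CPM in WT_EC libraries 10, 12, 14 and 17. It was the one gene of the 8 whose groups did not overlap, but the highest SpdefKO_EC library and the lowest WT_EC library both rounded to 134 CPM; 10.4% of all genes tested were separated in that direction. Its log2 change was -0.26 ± 0.11 (adjusted p = 0.134, edgeR).

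Casp4 ranged from 70.04 to 93.9 CPM in SpdefKO_EC and from 58.0 to 92.9 CPM in WT_EC, a log2 difference of 0.16 with an interval of -0.22 to 0.54. Il1b had 9.44, 9.04, 13.5 and 6.35 CPM in SpdefKO_EC libraries 4, 6, 8 and 20, and 8.88, 11.1, 6.62 and 7.31 CPM in WT_EC libraries 10, 12, 14 and 17, so the groups overlapped. Il1rn averaged 96.7 ± 12.9 CPM in SpdefKO_EC and 79.4 ± 11.8 CPM in WT_EC (SD, n = 4 each), the opposite sign to goblet cells, with a log2 difference of 0.32 (adjusted p = 0.181, edgeR). For Nlrp6 in SpdefKO_EC, library 6 reached 344 CPM and the others had 178 to 247 CPM. In WT_EC it stayed between 199.98 and 225 CPM.

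The genotype change in goblet cells minus that in the other cells was tested in the same fit, and 9.53% of all genes (1231) passed; with goblet cell and EC libraries of adjacent numbers as blocks 3329 did. Il1b, Il1rn and Casp4 passed, by 2.82 ± 0.68 (adjusted p = 0.0143), -0.99 ± 0.23 (adjusted p = 0.0109) and 0.85 ± 0.26 (adjusted p = 0.0495, edgeR). The Casp4 call sat at the threshold: it was lost in 15 of 23 alternative settings, with adjusted p-values up to 0.122, and without WT_GC 13 the difference was 0.67 (adjusted p = 0.0539). With the blocks it was 0.87 (adjusted p = 0.00125, edgeR). The Il1b and Il1rn calls were kept in all 23. For Nlrp6, Pycard, Casp1, Il18 and Gsdmd the differences lay between -0.13 and -0.01 and did not pass; for Nlrp6 and Gsdmd the sign changed with the scaling, and for Nlrp6 also with the blocks.

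**Figure D2:**
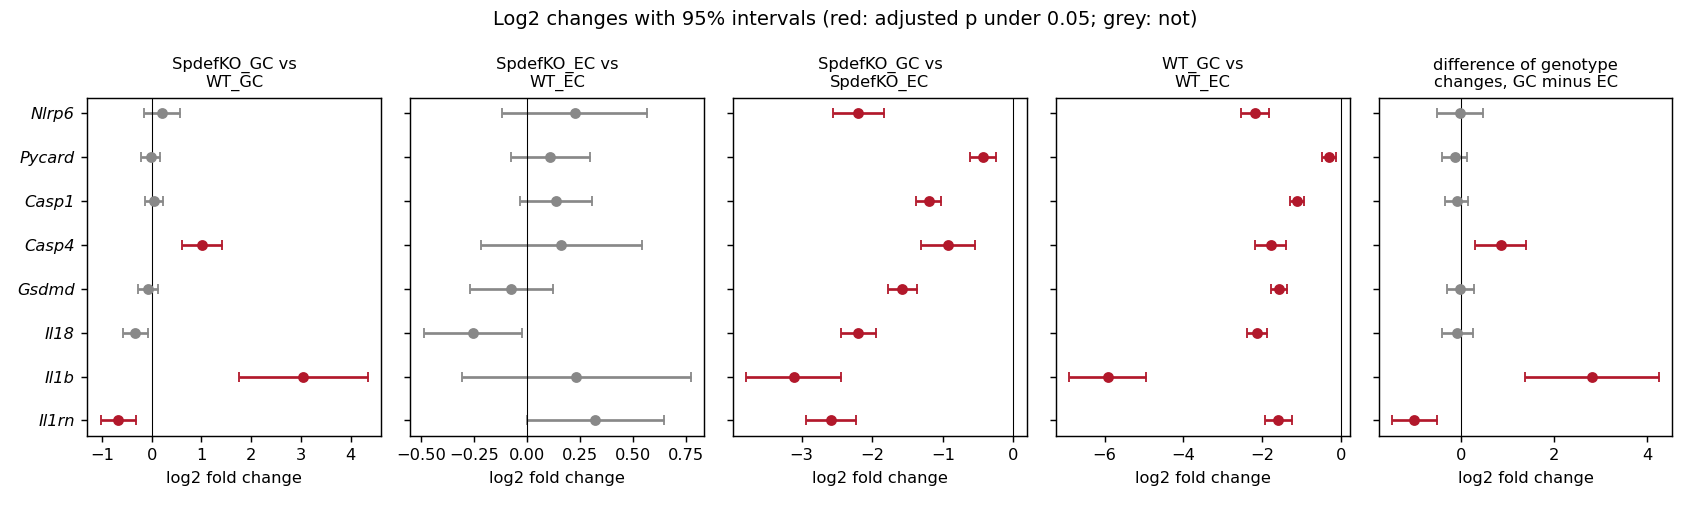
Log2 fold changes (horizontal axes, a separate scale in each panel) of the 8 genes in 5 comparisons from one edgeR fit; bars are 95% intervals, red marks an adjusted p under 0.05 and grey the rest. Casp4, Il1b and Il1rn are red in the SpdefKO_GC against WT_GC panel, no gene is red between SpdefKO_EC and WT_EC, and all 8 are red and lower in goblet cells in both fraction panels.

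Between fractions, all 8 genes were lower in goblet cells than in the other epithelial cells of the same genotype. Among all genes tested, 28.4% were lower in SpdefKO_GC than in SpdefKO_EC and 30.2% were lower in WT_GC than in WT_EC. The median log2 change of the 8 genes was -1.88 in Spdef -/- mice and -1.69 in wild-type mice, against 0.03 and 0.05 for all genes tested. The libraries of the fractions did not overlap for 8 of 8 genes in Spdef -/- mice (19.7% of all genes tested, lower) and for 7 of 8 in wild-type mice (26.2%, lower); the exception was Pycard. The comparisons between fractions use the same libraries as those between genotypes.

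Nlrp6 was 4.58-fold lower in SpdefKO_GC than in SpdefKO_EC and 4.52-fold lower in WT_GC than in WT_EC. It had 57.9, 69.4, 47.8 and 55.3 CPM in SpdefKO_GC libraries 3, 5, 7 and 19, against 202, 344, 178 and 247 CPM in SpdefKO_EC libraries 4, 6, 8 and 20. In wild-type mice it had 42.9, 59.7, 48.1 and 48.6 CPM in WT_GC libraries 9, 11, 13 and 18, against 211, 217, 225 and 199.98 CPM in WT_EC libraries 10, 12, 14 and 17. Every EC library was above 170 CPM and every goblet cell library below 70 CPM. The log2 changes were -2.19 ± 0.17 in Spdef -/- mice (adjusted p = 9.02e-09) and -2.18 ± 0.17 in wild-type mice (adjusted p = 9.12e-09, edgeR). Goblet cells thus held 23.8% of the EC level of Nlrp6 in Spdef -/- mice and 23.4% in wild-type mice.

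Pycard differed least between fractions. It had 139, 124, 118 and 125 CPM in SpdefKO_GC against 155, 172, 157 and 139 CPM in SpdefKO_EC, and 116, 133, 140 and 121 CPM in WT_GC against 156, 145, 172 and 123 CPM in WT_EC. The wild-type groups overlapped. The log2 changes were -0.43 ± 0.09 in Spdef -/- mice (adjusted p = 0.000402) and -0.30 ± 0.09 in wild-type mice (adjusted p = 0.0066, edgeR). The adaptor was thus present at 81.0% and 85.7% of the EC level in goblet cells of Spdef -/- and wild-type mice.

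Casp1 and Gsdmd, the protease and its pore-forming substrate, were lower by a similar amount in both genotypes. Casp1 averaged 77.8 ± 3.33 CPM in SpdefKO_GC against 164 ± 18.9 CPM in SpdefKO_EC, and 75.0 ± 3.06 CPM in WT_GC against 154 ± 13.5 CPM in WT_EC. Its log2 changes were -1.20 ± 0.08 in Spdef -/- mice and -1.11 ± 0.08 in wild-type mice. For Gsdmd, at chr15:75862327-75867408, the change was -1.57 ± 0.10 in both genotypes, and no goblet cell library exceeded 79.1 CPM while no EC library was below 173 CPM.

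The fraction difference of Casp4 was smaller in Spdef -/- than in wild-type mice, by a test at the threshold. Its level in goblet cells was 57.4% of that in EC in Spdef -/- mice and 30.8% in wild-type mice. The log2 change was -0.93 ± 0.18 in Spdef -/- mice (adjusted p = 0.000347) and -1.78 ± 0.19 in wild-type mice (adjusted p = 4.09e-07, edgeR). The test of that difference is the Casp4 value given above. Its call was lost in 15 of 23 alternatives, among them that without WT_GC 13, and was kept with the blocks.

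Among the cytokines, Il18 was lower in goblet cells by 4.59-fold in Spdef -/- mice and 4.37-fold in wild-type mice. Il1b had the largest fold difference of the 8: 70 counts in SpdefKO_GC against 585 in SpdefKO_EC, and 8 in WT_GC against 483 in WT_EC. The EC to goblet cell ratio of summed counts was 8.2 in Spdef -/- mice (exact 95% interval 6.39 to 10.7) and 61.3 in wild-type mice (30.8 to 142.7). Both intervals cover counting error only, not the spread between libraries. Il1rn, the antagonist, was 5.98-fold lower in SpdefKO_GC than in SpdefKO_EC and 3.01-fold lower in WT_GC than in WT_EC. Its share of the EC level was thus 18.2% in Spdef -/- and 35.2% in wild-type goblet cells, while that of Il1b was 12.8% and 1.85%. The wild-type share of Il1b rests on 8 counts and was 1.03% without WT_GC 18 and 2.47% without WT_GC 13.

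These shares can be set beside those of absorptive colonocyte genes in the same sorted fractions. The 11 absorptive markers in goblet cells were at 3.35% to 57.3% of their EC level in Spdef -/- mice (median 5.38%) and at 1.68% to 57.3% in wild-type mice (median 3.28%). Each of the 8 genes lay above the median of these markers in Spdef -/- mice, and all but Il1b did so in wild-type mice. Carry-over of EC or their RNA into the goblet cell fraction was not tested.

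**Figure D3:**
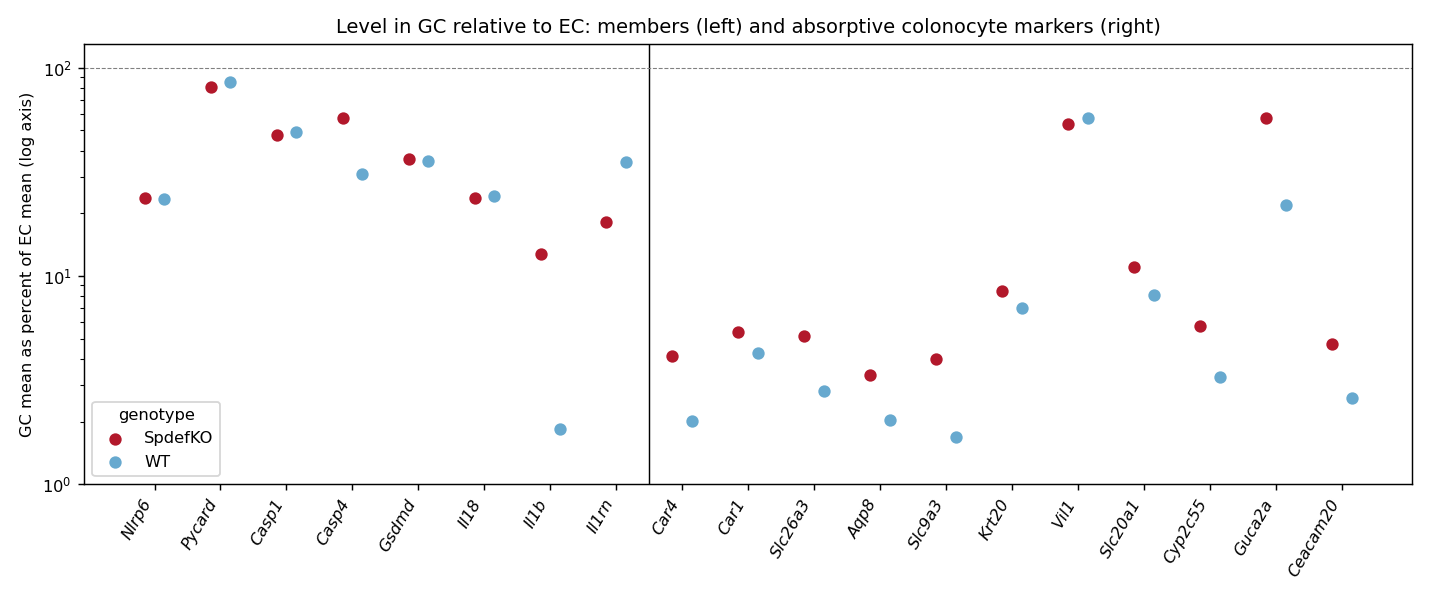
Mean CPM in goblet cells as percent of the mean CPM in the other epithelial cells (log axis; dashed line at equal levels) for the 8 genes on the left and 11 absorptive colonocyte markers on the right, by genotype (n = 4 libraries a group). Pycard lies highest at 81.0% and 85.7%, and Il1b of wild-type mice lies at 1.85%, below the wild-type marker median of 3.28%.

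Levels were compared between genes only per kilobase of annotated exon. In SpdefKO_GC the order was Casp1, at 51.9 ± 2.22 CPM per kb, then Pycard, Gsdmd, Il18, Casp4, Nlrp6, Il1rn and Il1b at 0.643 CPM per kb. In WT_GC it was Casp1, at 50.1 ± 2.05 CPM per kb, then Il18, Pycard, Gsdmd, Nlrp6, Casp4, Il1rn and Il1b at 0.0822 CPM per kb. Casp1 stood clear of its neighbour in both goblet cell groups. Pycard and Gsdmd overlapped in their libraries in both, as did Gsdmd and Il18 in SpdefKO_GC and Il18 and Pycard in WT_GC. Casp4 and Nlrp6 overlapped in SpdefKO_GC, whereas in WT_GC Nlrp6 lay above Casp4 without overlap and Casp4 overlapped with Il1rn.

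In both EC groups the order was Il18, Casp1, Gsdmd, Nlrp6, Pycard, Casp4, Il1rn and Il1b. Il18 led with 116 ± 14.4 CPM per kb in SpdefKO_EC and 143 ± 10.2 CPM per kb in WT_EC. Il18 and Casp1 overlapped in SpdefKO_EC but not in WT_EC, and Casp1 and Gsdmd overlapped in WT_EC but not in SpdefKO_EC. Nlrp6 with Pycard, and Casp4 with Il1rn, overlapped in both. Il1b, at 5.03 CPM per kb in SpdefKO_EC and 4.44 CPM per kb in WT_EC, was the lowest in every group.

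**Figure D4:**
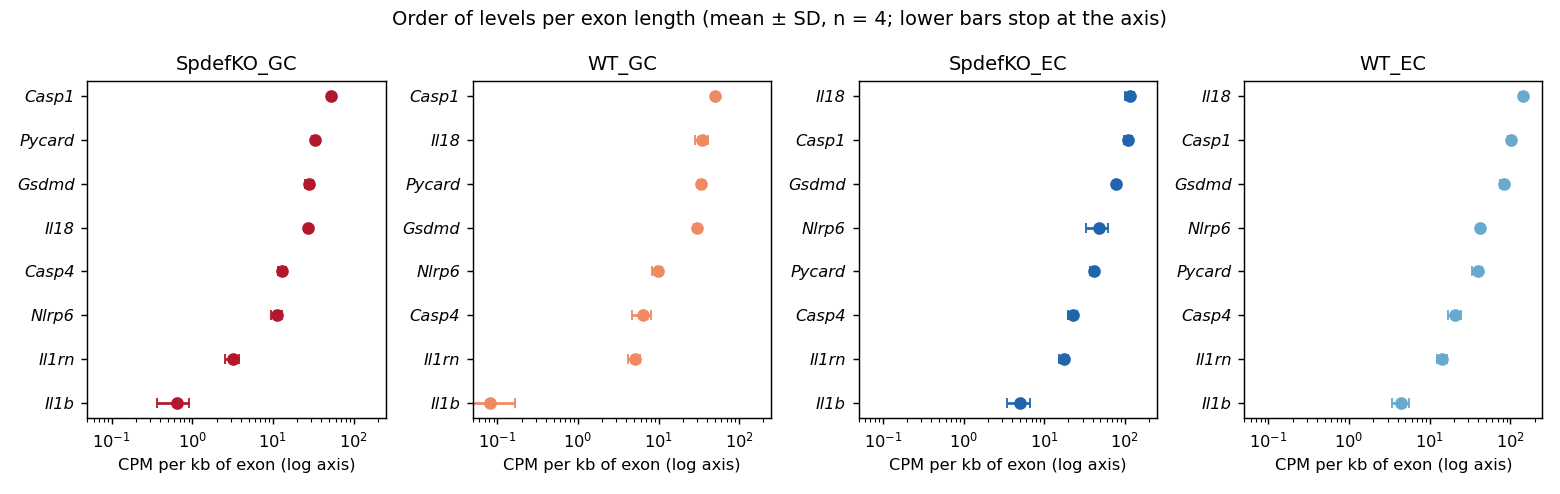
Mean CPM per kilobase of annotated exon (log axis) of the 8 genes, ordered within each group; bars are SD (n = 4 libraries). Casp1 leads in SpdefKO_GC and WT_GC at 51.9 and 50.1 CPM per kb, and Il18 leads in SpdefKO_EC and WT_EC at 116 and 143 CPM per kb.

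Across the 16 libraries most of the 8 genes varied together, largely through the division between fractions. The highest Pearson correlation of log2(CPM + 1) among them was that of Casp1 with Nlrp6, at 0.98, and the lowest that of Pycard with Casp4, at 0.44. Among 12601 genes, those whose pattern was most like a given one were Slc5a8, Ano1 and Trim30d for Nlrp6 (r = 0.99 each), Tat, Rffl and Cldn23 for Il18, Slc25a20, 9130017N09Rik and Nt5e for Gsdmd, and Apol6, Btnl5 and Trim30d for Casp1. For Il1b they were Ankrd50, Myo18a and Arhgef5. Casp4 was most like Epha2, Ssfa2 and Myo1e (r = 0.98 for Epha2), Il1rn most like Rhou, Acad11 and Agrn (r = 0.98 for Rhou), and Pycard most like Ndufb8 (r = 0.91). These are descriptions over libraries that share the fraction split and the depth of each library.

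The 74 other listed genes of the pathway with a row, of which 55 were tested, place the 8 genes among their partners. Between SpdefKO_GC and WT_GC, 8 were higher and 8 lower, where 21.4% of all genes tested passed. Of these 16 calls, 6 held under every alternative: Irak1, Irak3 and Nfkbiz, higher, and Gsdmc3, Sigirr and Tlr1, lower. Genes named here for a genotype change were picked after their values were seen, apart from Nlrp3, Il33, Il1r1, Sigirr and Il18bp.

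Sigirr, a single-domain receptor that restrains IL-1 and Toll-like receptor signalling, was lower in SpdefKO_GC. It had 26.6, 23.6, 26.4 and 22.9 CPM in SpdefKO_GC libraries 3, 5, 7 and 19, against 37.9, 38.5, 41.6 and 34.9 CPM in WT_GC libraries 9, 11, 13 and 18. The groups were well apart, and the log2 change was -0.63 ± 0.10 (adjusted p = 0.0003, edgeR). Il1r1, the signalling IL-1 receptor, averaged 29.7 CPM in SpdefKO_GC and 39.2 CPM in WT_GC (log2 change -0.41, adjusted p = 0.0351), a call lost without any one of SpdefKO_GC 3, 7 or 19 or WT_GC 9, 11 or 18, with adjusted p-values up to 0.099. Il18bp, the soluble IL-18 decoy, averaged 6.29 CPM in SpdefKO_GC and 3.17 CPM in WT_GC (log2 change 0.99, adjusted p = 0.0358). This was lost in 8 of 23 alternatives, among them those without SpdefKO_GC 3 or 5 or WT_GC 11, 13 or 18; without SpdefKO_GC 5 the change was 0.59 (adjusted p = 0.138).

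Il33, an alarmin of the IL-1 family, averaged 2.75 CPM in SpdefKO_GC and 1.53 CPM in WT_GC (log2 change 0.85, adjusted p = 0.0203), and did not pass without SpdefKO_GC 19, WT_GC 9 or WT_GC 13 (adjusted p up to 0.0767). Nlrp3, the sensor best known from macrophages, had 12 counts in SpdefKO_GC and 1 in WT_GC, a ratio of 12.03 with an exact 95% counting interval of 1.78 to 514; its adjusted p was 0.0187 and rose to 0.0821 without SpdefKO_GC 5, 0.0504 without WT_GC 9 and 0.0561 without WT_GC 13. Il1a had 17 counts in SpdefKO_GC and 3 in WT_GC, a ratio of 5.68 (1.64 to 30.2), and did not pass (adjusted p = 0.132, edgeR).

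Of the signalling genes, 5 of 20 were higher and 2 lower in SpdefKO_GC than in WT_GC. Of all 12915 genes tested, 1342 were higher and 1422 lower. Irak3, an inhibitory member of the IRAK kinase family, averaged 24.5 ± 3.70 CPM in SpdefKO_GC and 16.2 ± 0.766 CPM in WT_GC (log2 change 0.59 ± 0.13, adjusted p = 0.00298). Nfkbiz, which encodes the nuclear IκBζ protein, had 198 to 206 CPM in SpdefKO_GC and 91.0 to 161 CPM in WT_GC (0.57 ± 0.13, adjusted p = 0.00457). Irak1 rose by 0.31 ± 0.07 (adjusted p = 0.00317, edgeR). Irak2, an activating kinase of the pathway, averaged 39.8 CPM in SpdefKO_GC and 25.7 CPM in WT_GC (0.63, adjusted p = 0.0207); the call was lost without SpdefKO_GC 5 or 19 and without the filter on low counts.

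WT_GC 13 was the lowest WT_GC library for Casp4, and also for Casp1 (70.6 CPM), Il18 (27.9 CPM), Il1b (0 CPM) and Il1rn (21.99 CPM). Nlrp6 and Gsdmd were not lowest there, and Pycard had its highest WT_GC value, 140 CPM. The sensors Nlrc4 and Aim2 were lowest in this library too, at 71.9 and 59.9 CPM. So were several NF-κB pathway genes, which were picked after their values were seen. WT_GC 13 had 15.96 CPM of Irak2, 91.0 CPM of Nfkbiz, 110 CPM of Tnfaip3 and 237 CPM of Nfkbia. The other 3 WT_GC libraries had 26.6 to 31.7, 143 to 161, 252 to 282 and 383 to 459 CPM of these genes in that order. WT_EC 14, whose number is adjacent, was likewise the lowest WT_EC library for Casp4, at 58.0 CPM, and for these NF-κB pathway genes. It had 81.0 CPM of Irak2, 336 CPM of Nfkbiz, 316 CPM of Tnfaip3 and 319 CPM of Nfkbia. Il18, Il1b, Il1rn and Gsdmd also had their lowest WT_EC values there, at 134, 6.62, 63.3 and 177 CPM. Casp1 did not, and Nlrp6 and Pycard had their highest, at 225 and 172 CPM. The other 3 WT_EC libraries had 76.4 to 92.9 CPM of Casp4, 95.3 to 104 CPM of Irak2, 392 to 439 CPM of Nfkbiz, 463 to 559 CPM of Tnfaip3 and 490.2 to 540 CPM of Nfkbia. Tnfaip3 and Nfkbia encode feedback inhibitors of NF-κB, and neither passed between SpdefKO_GC and WT_GC. Other genes of the signalling list were mixed in WT_GC 13. Myd88 and Tab2 also had their lowest WT_GC values there, at 26.0 and 73.1 CPM. Irak1, Irak3, Chuk and Ikbkg did not, and Map3k7 had its highest, at 82.8 CPM.

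Of the sensors other than Nlrp6, Nlrp3 (above) and Nlrp10 passed between the goblet cell groups. Nlrp10 had 2.61, 4.38, 3.799 and 4.50 CPM in SpdefKO_GC libraries 3, 5, 7 and 19, against 7.13, 5.43, 5.36 and 5.93 CPM in WT_GC libraries 9, 11, 13 and 18. The groups did not overlap, and the log2 change was -0.65 ± 0.20 (adjusted p = 0.0289, edgeR). The call was lost without SpdefKO_GC 3 or 7 or WT_GC 9 or 18, with adjusted p-values up to 0.1002. Nlrc4 averaged 86.6 ± 3.52 CPM in SpdefKO_GC and 86.9 ± 10.6 CPM in WT_GC, Aim2 72.6 ± 8.23 and 64.5 ± 3.85 CPM, and Naip6 26.8 ± 4.66 and 26.2 ± 1.37 CPM in these groups. Naip genes, Nlrp1 genes and the Gsdmc genes are similar copies. The counting could lose shared reads or give them to the wrong copy, so values of these genes are uncertain in every comparison. The adaptor gene Myd88 averaged 33.1 CPM in SpdefKO_GC and 32.9 CPM in WT_GC. Casp8 had a log2 change of -0.12 and Gsdmc2 one of -0.29, and neither passed.

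Between SpdefKO_EC and WT_EC, 7 pathway genes were higher and 1 lower among the 55 tested. Of all 12915 genes tested, 787 were higher and 844 lower, 12.6% together. The total count therefore does not set the pathway apart, and its split by direction was not tested. Markers of other cells moved as well, and their part in the result was not tested. Of the goblet cell markers 4 of 10 were lower and 0 higher. Their sums were 482 to 526 CPM in SpdefKO_EC and 540 to 740 CPM in WT_EC. Muc2 was among the lower ones (log2 change -0.78 ± 0.17, adjusted p = 0.00715, edgeR). Of the 11 absorptive colonocyte markers 3 were higher and 3 lower. The lymphocyte markers summed to 4.36 to 8.47 CPM in SpdefKO_EC and 1.89 to 3.66 CPM in WT_EC, and the macrophage, monocyte and neutrophil markers to 39.96 to 56.3 CPM in SpdefKO_EC and 40.1 to 45.9 CPM in WT_EC. Of the tuft cell markers 4 of 7 tested were lower, with sums of 9.12 to 16.9 CPM in SpdefKO_EC and 37.2 to 79.3 CPM in WT_EC. Of the enteroendocrine markers 6 of 10 were lower, with sums of 238 to 396 CPM in SpdefKO_EC and 546 to 755 CPM in WT_EC. Nlrp9b, a sensor expressed in intestinal epithelium, averaged 60.2 ± 10.8 CPM in SpdefKO_EC and 94.1 ± 5.51 CPM in WT_EC (log2 change -0.61 ± 0.12, adjusted p = 0.00235). Tlr2, a receptor for bacterial lipoproteins, averaged 26.5 ± 6.76 CPM in SpdefKO_EC and 15.9 ± 2.45 CPM in WT_EC (0.77 ± 0.19, adjusted p = 0.0123). Tlr3, the receptor for double-stranded RNA, rose by 0.56 ± 0.13 (adjusted p = 0.0111, edgeR). These 3 calls held under every alternative. Nek7, Chuk, Nfkbia, Tnfaip3 and Il1r2 passed as well, but each lost the call in 9 to 15 of 23 alternatives. The genotype change of Nlrp9b differed between fractions by 0.94 ± 0.23 (adjusted p = 0.013, edgeR).

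Between fractions, 8 of the 55 pathway genes were higher and 28 lower in SpdefKO_GC than in SpdefKO_EC, and 11 were higher and 29 lower in WT_GC than in WT_EC. Of all genes tested, 28.0% were higher and 28.4% lower in SpdefKO_GC than in SpdefKO_EC. In WT_GC 31.0% were higher and 30.2% lower than in WT_EC. The median log2 changes of the 55 pathway genes were -0.24 in Spdef -/- mice and -0.27 in wild-type mice, nearer to 0 than those of the 8 genes above. Nlrp9b was lower in goblet cells, with 3.08 CPM in SpdefKO_GC against 60.2 CPM in SpdefKO_EC and 2.46 CPM in WT_GC against 94.1 CPM in WT_EC. Naip1 was lower by 2.04 in Spdef -/- mice and 2.01 in wild-type mice on the log2 scale. Nlrc4 and Aim2 were nearer to equal, with Aim2 at -0.35 in Spdef -/- mice and -0.46 in wild-type mice.

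Gasdermins followed the fractions in different directions. Gsdmc4 averaged 184 CPM in SpdefKO_GC against 812 CPM in SpdefKO_EC, and 212 CPM in WT_GC against 804 CPM in WT_EC. Dfna5, the row for gasdermin E, averaged 14.1 ± 0.701 CPM in SpdefKO_GC against 5.73 ± 1.31 CPM in SpdefKO_EC, and 18.1 ± 2.90 CPM in WT_GC against 7.08 ± 1.24 CPM in WT_EC. It was thus higher in goblet cells, by 1.16 and 1.27 on the log2 scale (adjusted p = 4.18e-06 and 8.38e-07, edgeR), the opposite of Gsdmd.

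On the receiving side, Il1r1 was higher in goblet cells, at 29.7 CPM in SpdefKO_GC against 19.1 CPM in SpdefKO_EC and 39.2 CPM in WT_GC against 19.8 CPM in WT_EC (log2 changes 0.52 and 0.91, adjusted p = 0.00328 and 1.08e-05, edgeR). Il18r1, the ligand-binding chain of the IL-18 receptor, had 7 counts in each goblet cell group and 11 in each EC group and was not tested. Irak3 was far higher in goblet cells, with 24.5 CPM in SpdefKO_GC against 0.529 CPM in SpdefKO_EC and 16.2 CPM in WT_GC against 0.604 CPM in WT_EC. Irak2 and Nfkbiz went the other way, lower by 1.35 and 1.15 in Spdef -/- mice and by 1.98 and 1.62 in wild-type mice on the log2 scale. Of the Toll-like receptors, Tlr2 and Tlr1 were lower in goblet cells of both genotypes and Tlr6 was higher.

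**Figure D5:**
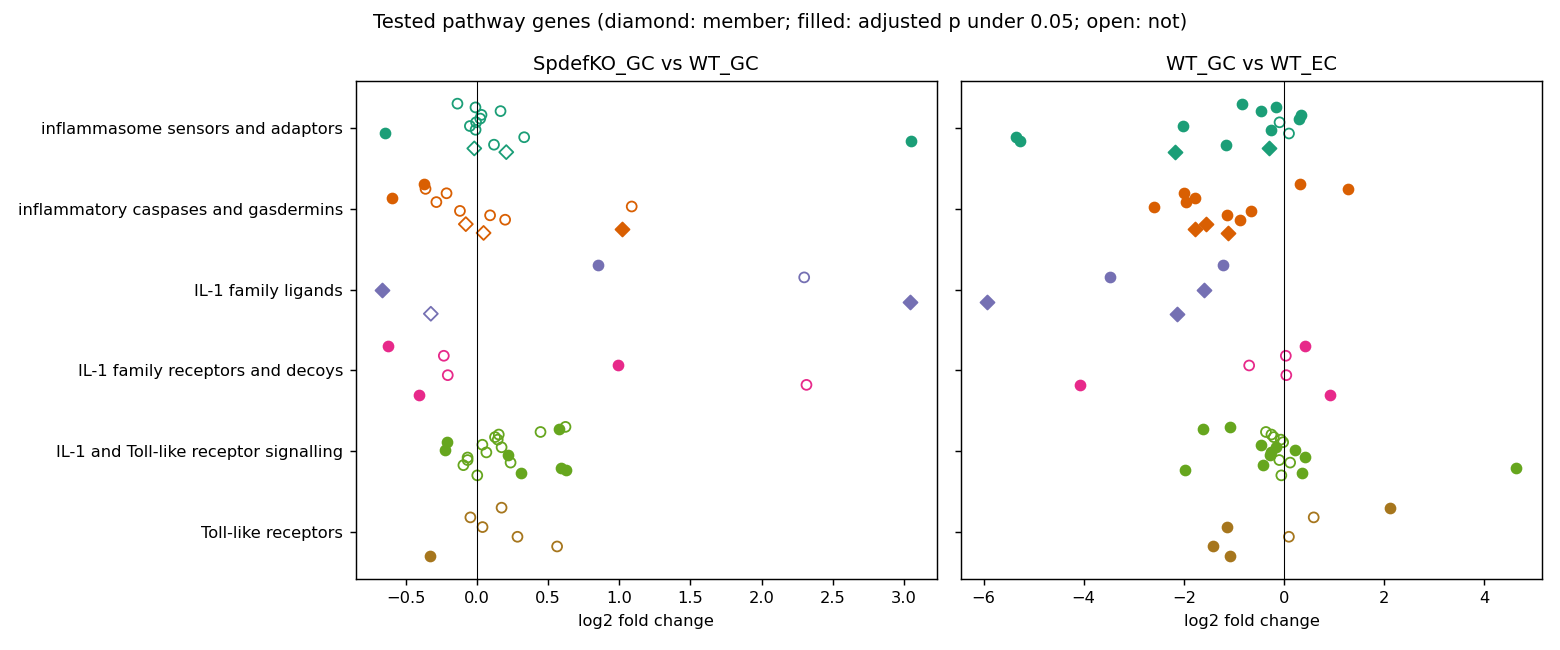
Log2 fold changes (horizontal axes, different scales) of all tested pathway genes by list, for SpdefKO_GC against WT_GC on the left and WT_GC against WT_EC on the right; diamonds are the 8 genes, circles the 55 others, and filled symbols have an adjusted p under 0.05. On the left 3 diamonds are filled, 2 higher and 1 lower; on the right all 8 are filled and lie below 0.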

How the data were processed

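The authors deposited a table of raw read counts with a row per gene symbol and a column for each of 16 libraries. Per the labels' protocols, total RNA libraries were made with a stranded TruSeq kit after ribosomal RNA depletion and sequenced from both ends. Tools listed in the submitters' processing notes, with no role or order, are STAR 2.4.0f, HTSeq 0.6.1p1, FastQC 0.11.2 and DESeq2 1.14, and the build listed is mm10; for annotation, strand setting and filters nothing was given in the sources used here. A deposited normalized table was not used. Rows naming no gene held 47.1% to 54.7% of counts and were left out. Levels are CPM over gene rows; exon lengths come from GENCODE vM21 and promoter windows from RefSeq.

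Counts were tested with edgeR 4.0.16 in R 4.3.3 (quasi-likelihood, robust, TMM factors, filterByExpr by group, 1 coefficient per group over all 16 libraries), which kept 12915 genes including all 8 examined; all were adjusted together (Benjamini-Hochberg, threshold 0.05). Standard errors were approximated from the size of the log2 change and its F statistic, and 95% intervals follow from them. The procedure was also run on simulated counts with the same dispersion for every gene and no outlying library. That run does not test the calls made in these data. The alternatives were RLE, upper-quartile and plain library scaling, no filter, DESeq2 1.42.0, limma-voom 3.58.1, only the compared groups, and leaving out each library. Within a genotype each goblet cell library has an EC library of adjacent number. No label ties them, but over the genes tested their deviations from the group means correlated at 0.13 to 0.70, and each goblet cell library correlated best with its neighbour (8 of 8). A fit with these pairs as a replicate block was therefore added after seeing the data. It gives the comparisons of fractions and their difference between genotypes, but not the comparisons of genotypes within a fraction. At 10085637 gene counts, 1 count in the shallowest library is about 0.1 CPM, and genes with few counts carry wide intervals. The 8 genes and all lists were chosen with earlier results of these data known. Other pathway genes were named where they were among up to 5 per list with an adjusted p under 0.05, an absolute log2 change of at least 1 and a mean of at least 1 CPM, or belonged to a fixed set; for likeness, the 3 most correlated genes per gene were named, except for Pycard, where the first is given and the rest are not reported here.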

Additional observations from a re-analysis of the deposited data

Results flagged for a closer look

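Of 32 sets of 4 libraries examined (the 8 genes in each group), 2 held a library far from the other 3 by Dixon's test; chance gives about 1 in 20. Casp4 in WT_GC had its lowest value, 14.5 CPM, in library 13, a gap of 0.863 of the group's range. Gsdmd in WT_GC had its highest value, 79.1 CPM, in library 18, a gap of 0.896 of the range. The genotype change differed between goblet cells and the other epithelial cells for Casp4 (0.85 on the log2 scale, adjusted p = 0.0495, edgeR), Il1b (2.82, adjusted p = 0.0143) and Il1rn (-0.99, adjusted p = 0.0109). The Casp4 difference is the least firm of these, since its call was lost in 15 of 23 alternatives. Among these, it was 0.67 (adjusted p = 0.0539, edgeR) without WT_GC 13. With libraries of adjacent number as blocks it was 0.87 (adjusted p = 0.00125, edgeR).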

How the results depend on the processing

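The groups share no replicate number. A replicate block of adjacent library numbers was chosen after seeing the data. With it, 3329 genes in place of 1231 passed for the genotype change in goblet cells minus that in the other cells. The cause was not tested, and Nlrp6 there was 0.015. Nlrc4 (-0.19, adjusted p = 0.0216) and Myd88 (-0.24, adjusted p = 0.00366) then passed between SpdefKO_GC and SpdefKO_EC and Il18bp (-0.69, adjusted p = 0.000498, edgeR) between WT_GC and WT_EC; the block changed no other call of a named gene. Casp4, Il1b and Il1rn passed between SpdefKO_GC and WT_GC under all 23 alternatives, with log2 changes of 0.84 to 1.11, 2.63 to 3.71 and -0.77 to -0.53; all 8 genes stayed lower in goblet cells in both genotypes, and 0 passed between SpdefKO_EC and WT_EC. The number of all genes passing between SpdefKO_EC and WT_EC was 1631, but 1075 when only these groups were fitted, and 940 to 2253 when single libraries were left out (940 without SpdefKO_EC 4, 1006 without WT_EC 17); the cause was not tested. The share of higher calls there was 48.3%, against 33.1% with upper-quartile and 32.7% with plain scaling. Between SpdefKO_GC and SpdefKO_EC it was 49.7%, against 60.9% and 61.9%. For the genotype change in goblet cells minus that in the other cells it was 51.2%, against 66.1% with plain scaling. Upper-quartile and plain scaling moved the median of all genes to 0.15 and 0.16 between SpdefKO_GC and SpdefKO_EC and to 0.14 and 0.13 between WT_GC and WT_EC. Signs turned only for values that did not pass. Nlrc4 between SpdefKO_GC and WT_GC was 0.00014 with RLE and 0.00056 with DESeq2. Myd88 was -0.014 with upper-quartile scaling and -0.010 without the filter between SpdefKO_GC and WT_GC, and 0.030 and 0.026 with upper-quartile and plain scaling between WT_GC and WT_EC. For Nlrp6 the genotype change in goblet cells minus that in the other cells was 0.0018 (RLE), 0.0071 (upper-quartile), 0.022 (plain), 0.0025 (DESeq2) and 0.016 (limma-voom). For Gsdmd it was 0.018 (RLE), 0.024 (upper-quartile), 0.038 (plain) and 0.018 (DESeq2). With single libraries left out, values that changed sign ran between SpdefKO_GC and WT_GC from -0.058 to 0.030 for Pycard, -0.034 to 0.13 for Muc2, -0.095 to 0.051 for Nlrc4, -0.11 to 0.11 for Naip6 and -0.10 to 0.084 for Myd88. They ran from -0.11 to 0.11 for Il1r1 between SpdefKO_EC and WT_EC, from -0.042 to 0.16 for Sigirr and -0.56 to 0.049 for Il18bp between SpdefKO_GC and SpdefKO_EC, and from -0.15 to 0.049 for Myd88 between WT_GC and WT_EC. For the genotype change in goblet cells minus that in the other cells they ran from -0.14 to 0.19 for Nlrp6. For Il18 they ran from -0.17 to 0.037 and for Gsdmd from -0.077 to 0.076. Depth limits Il1b in WT_GC (8 counts), Nlrp3 and Il18r1.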
